A study of Homo sapiens with 24 samples.

Results

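Transcripts of 6 secreted hormones and autocrine or paracrine factors were followed in 4 human cancer cell lines at normal and low oxygen. The genes were ADM, ADM2, STC1, STC2, EPO and EDN1, taken by symbol from the 23106 genes counted in each library, and all 6 were listed in all 24 libraries. Poly-A RNA was sequenced from A549 (lung), HCT-116 (colorectal), PC3 (prostate) and T47D (breast) cells kept in 21% oxygen (normoxia) or in 0.5% oxygen for 16 h (hypoxia), with 3 replicates in each of the 8 groups. No other agent and no genetic change beyond those the lines carry is given for any group. Each tumor type stood as a single established line in monolayer, and medium went with line (DMEM for T47D, F12K for A549 and PC3, McCoy's 5a for HCT-116), so that line and medium cannot be told apart except between A549 and PC3, which shared a medium.

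Cells sense oxygen through prolyl hydroxylases that mark the alpha subunits of the hypoxia-inducible factors (HIFs) for destruction. When oxygen is low these subunits persist, pair with HIF-1β and bind the motif ACGTG or GCGTG near the genes they activate. Several of the best known products of this pathway are secreted. Erythropoietin (EPO) is the kidney hormone that drives red cell production, and adrenomedullin (ADM) is a vasodilator peptide. Adrenomedullin 2 (ADM2, intermedin) acts through the same receptors as adrenomedullin. The stanniocalcins STC1 and STC2 are glycoproteins named after the calcium-regulating hormone of fish, and both inhibit the IGF-binding-protein protease PAPP-A. Endothelin-1 (EDN1) is a potent vasoconstrictor that endothelium secretes.

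The positions of the genes are given on GRCh37, the build of the counts, from GENCODE 44 lifted to that build. ADM lies at chr11:10326620-10328944 on the plus strand (4 exons in the MANE transcript) and ADM2 at chr22:50919972-50924869 on the plus strand (3 exons). STC2 lies at chr5:172741726-172755450 on the minus strand (4 exons), EPO at chr7:100318091-100321323 on the plus strand (5 exons) and EDN1 at chr6:12290594-12297427 on the plus strand (5 exons). All are protein-coding, as is STC1. ADM2 overlaps SBF1 on the opposite strand. The library kit marks strand, but the strand setting of the counting is not given in the sources used here, so ADM2 counts are uncertain.

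RefSeq promoters matched 5 of the 6 genes. To show what the motif looks like where these hormones start, the 250 bases before the start are printed for ADM, STC2 and EDN1 (GRCh38.p14, 5′ to 3′ on the gene's strand), with each ACGTG or GCGTG on either strand in capitals. The windows are chr11:10304823-10305072 for ADM, chr5:173328415-173328664 for STC2 and chr6:12290111-12290360 for EDN1, the last being the third of the 3 EDN1 starts listed. The EPO enhancer is known to lie beyond the 3′ end of the gene, so the 300 bases after its last exon are shown for EPO (GRCh37, chr7:100321324-100321623).
ADM: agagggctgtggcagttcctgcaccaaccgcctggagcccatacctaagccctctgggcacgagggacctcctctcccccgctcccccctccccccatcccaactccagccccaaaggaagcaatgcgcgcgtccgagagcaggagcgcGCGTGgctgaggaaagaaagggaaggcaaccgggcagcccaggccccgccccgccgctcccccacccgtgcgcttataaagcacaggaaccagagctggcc
STC2: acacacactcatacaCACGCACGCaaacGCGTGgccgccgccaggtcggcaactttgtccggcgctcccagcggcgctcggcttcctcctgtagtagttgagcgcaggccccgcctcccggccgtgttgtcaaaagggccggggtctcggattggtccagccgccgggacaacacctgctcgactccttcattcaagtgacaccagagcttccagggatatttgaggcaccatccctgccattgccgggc
EDN1: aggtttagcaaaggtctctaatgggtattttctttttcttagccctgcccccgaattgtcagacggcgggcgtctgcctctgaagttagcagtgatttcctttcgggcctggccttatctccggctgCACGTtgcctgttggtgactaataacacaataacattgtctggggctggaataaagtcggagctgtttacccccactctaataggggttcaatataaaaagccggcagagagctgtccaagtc
EPO downstream: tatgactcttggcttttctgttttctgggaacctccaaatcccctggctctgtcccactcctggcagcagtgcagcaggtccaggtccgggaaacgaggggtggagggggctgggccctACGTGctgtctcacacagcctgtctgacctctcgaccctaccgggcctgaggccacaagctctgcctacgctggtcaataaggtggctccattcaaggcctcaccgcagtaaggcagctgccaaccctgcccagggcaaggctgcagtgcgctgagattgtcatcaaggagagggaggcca
The ADM window held 1 GCGTG, 101 bases before the start. The STC2 window held 3 matches to GCGTG, 2 of them overlapping on the other strand. The EDN1 window held 1 ACGTG, read on the other strand, 123 bases before the start, while the windows of the other 2 EDN1 starts held 3 matches and 0. The ADM2 window held 1 GCGTG 225 bases before the start. The 250 bases before EPO held neither motif, whereas the window after the gene held 1 ACGTG at chr7:100321443-100321447, which begins 120 bases past the gene's end. Such matches are common. Of 35114 RefSeq promoter windows, 43.2% held ACGTG or GCGTG and 18.5% held ACGTG, and of 20151 windows after protein-coding genes, 29.6% held either motif and 14% held ACGTG.

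Libraries held 22698584 to 62850747 counts, so that 3 counts, the limit that a count of 0 allows, stood for 0.0436 to 0.132 CPM (counts per 1000000 counts of the library, with TMM factors over all 24 libraries). Replicates of a group correlated at r of 0.981 to 0.994 across genes. Line markers were checked in normoxia. T47D libraries held ESR1 at a mean of 166 CPM, PGR at 635 CPM and GATA3 at 708 CPM, and PC3 libraries held HOXB13 at 75.1 CPM but KLK3 at 0. The HCT-116 libraries held CDX2 at 11.8 CPM with CDX1 and VIL1 at 0 and LGALS4 at 0.0736 CPM, and CDH17 was at 0.056 CPM there but at 14.6 CPM in A549. In A549 the lung markers NKX2-1, SFTPB and SFTPC were at or near 0 (0, 0.0241 and 0.0424 CPM), and NKX2-1 (0.936 CPM) and NAPSA (1.04 against 0.438 CPM) were higher in HCT-116 than in A549. These markers thus did not show the labelled tissue of A549, and only CDX2 of 5 did for HCT-116. HCT-116 hypoxia replicate 2 stood apart from the other HCT-116 libraries. Over 26 genes above 100 CPM in A549 and at a median under 0.05 CPM in the other HCT-116 libraries, its mean level was 0.299 CPM, or 0.0518% of that in A549, against at most 0.00633% in the other 5 libraries, and for genes so chosen in PC3 the share was 0.0702% against at most 0.0235%. That trace was noticed after the data were examined. Results that rest on this library are given with and without it.

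Hypoxia raised at least 2 of the hormones in every line, and none passed the test in the lower direction. A gene was called when its adjusted p was under 0.05 and its fold change over 1.2 (edgeR's quasi-likelihood test, a separate fit per line, Benjamini-Hochberg adjustment over all genes tested there). In A549, 5 of the 6 genes passed the filter on low counts and 3 were called higher, namely ADM, STC1 and STC2, where 17.6% of all genes tested were called higher and 17.8% lower. In HCT-116, 4 passed and 3 were called higher, ADM, ADM2 and STC2 (background 23.3% higher and 27.0% lower). In PC3, 5 passed and 2 were called higher, ADM and STC1 (background 16.6% higher and 15.7% lower). In T47D all 6 passed, and ADM, STC1, STC2 and EPO were called higher (background 6.55% higher and 6.69% lower). The median log2 fold change of the tested hormones was 1.62 in A549, 1.72 in HCT-116, 0.52 in PC3 and 1.08 in T47D, against -0.01, -0.03, -0.01 and -0.01 for all genes tested. The filter keeps a gene that is high in hypoxia alone, as it kept EPO in T47D, so these counts and medians describe the genes that passed. In bulk RNA, fewer cells of a kind and less RNA per cell cannot be told apart. The labels do not say whether replicates were separate cultures, so the p-values measure the spread between these samples, which may be technical.

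**Figure D1:**
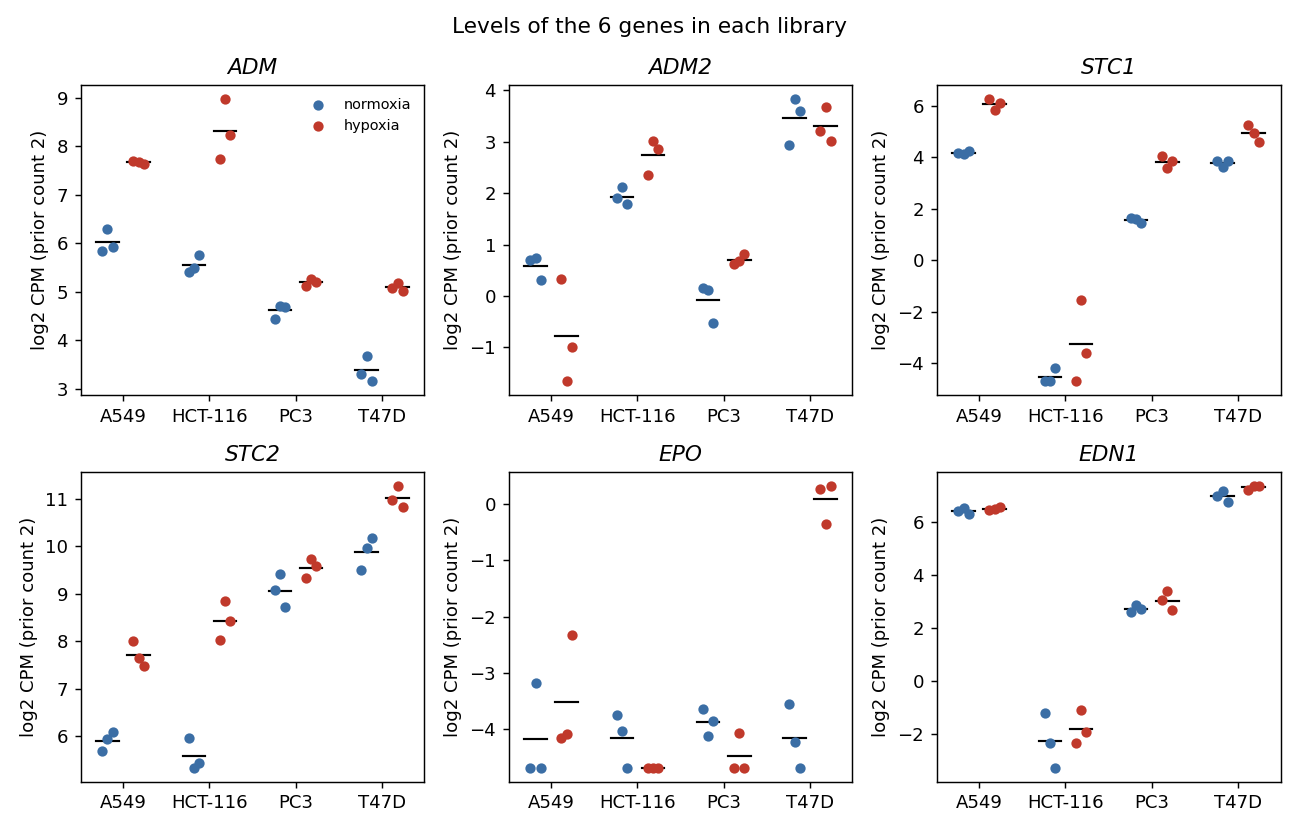
Level of each hormone gene in each of the 24 libraries as log2 CPM (prior count 2, vertical axis scaled separately for each gene), with normoxia in blue, hypoxia in red and black bars at the mean of 3 replicates. ADM hypoxia libraries lie above the normoxia libraries in all 4 lines, EPO is above the near-zero range in the T47D hypoxia libraries, and EDN1 differs far more between lines than between oxygen states.

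ADM, the vasodilator peptide, was the 1 hormone called higher in all 4 lines in the main test. In A549 its level was 57.4, 78.6 and 61.1 CPM in the 3 normoxia replicates and 207, 204 and 198 CPM in hypoxia (65.7 ± 11.3 against 203 ± 4.55 CPM, mean ± SD, n = 3). The groups did not overlap, and the log2 fold change was 1.62 ± 0.13 (SE, adjusted p = 5.89e-06). In HCT-116 the normoxia replicates held 42.5, 45 and 54.1 CPM and the hypoxia replicates 214, 501 and 300 CPM, with replicate 2 the highest (log2 fold change 2.72 ± 0.28, adjusted p = 4.88e-05). All 3 hypoxia libraries exceeded all 3 normoxia libraries, and leaving out any 1 library gave 2.35 to 3.01. In PC3 the rise was from 21.7, 26.4 and 25.7 CPM to 35.1, 38.4 and 36.6 CPM (0.52 ± 0.1, adjusted p = 0.00659). In T47D it was from 9.98, 12.7 and 8.97 CPM to 33.8, 36.4 and 32.1 CPM (1.6 ± 0.21, adjusted p = 0.000531). By log2 fold change ADM ranked 58 of 13614 genes in HCT-116, 219 of 13897 in A549, 372 of 14085 in T47D and 1649 of 13466 in PC3. The PC3 call was lost when all 24 libraries shared a single fit (0.57, adjusted p = 0.0864).

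The order of the lines by ADM level changed with oxygen. In normoxia it ran A549, HCT-116, PC3 and T47D with no overlap between neighbors (means 65.7, 47.2, 24.6 and 10.6 CPM). In hypoxia HCT-116 was first (338 ± 147 CPM) and A549 second (203 ± 4.55 CPM), while PC3 (35.1 to 38.4 CPM) and T47D (32.1 to 36.4 CPM) overlapped.

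ADM2, the related peptide intermedin, was low in every line and showed no common direction. In HCT-116 its level was 3.69, 4.29 and 3.4 CPM in normoxia and 5.11, 8.06 and 7.23 CPM in hypoxia, and it was called higher (log2 fold change 0.72 ± 0.27, adjusted p = 0.0378). That call was lost without hypoxia replicate 2 (0.59, adjusted p = 0.12), hypoxia replicate 3 (adjusted p = 0.0916), normoxia replicate 1 (adjusted p = 0.0538) or normoxia replicate 3 (adjusted p = 0.0767). In A549 normoxia held 1.57, 1.63 and 1.21 CPM and hypoxia 1.22, 0.28 and 0.462 CPM. These groups overlapped by a single hypoxia library, replicate 1, and the log2 fold change of -1.15 ± 0.47 was not called (adjusted p = 0.0745). Without that library it was -1.98 and was called (adjusted p = 0.0065). PC3 held 1.08, 1.05 and 0.657 CPM in normoxia and 1.5, 1.57 and 1.72 CPM in hypoxia, with no overlap but no call (0.74 ± 0.29, adjusted p = 0.0724). In T47D, where ADM2 was highest, 7.61, 14.2 and 12.1 CPM in normoxia overlapped 9.15, 12.8 and 8.01 CPM in hypoxia (-0.26 ± 0.26, adjusted p = 0.531). SBF1, the gene on the other strand, had log2 fold changes of 0.41 in A549, 0.66 in HCT-116, 0.59 in PC3 and 0.22 in T47D, at mean levels of 76.3 to 107 CPM in normoxia. Its part in the ADM2 values was not tested.

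STC1 (GRCh37, chr8:23699442-23712319, minus strand, 4 exons) rose in each of the 3 lines that expressed it. A549 libraries held 18, 17.3 and 18.9 CPM in normoxia and 77.4, 57.4 and 70.1 CPM in hypoxia (log2 fold change 1.91 ± 0.13, adjusted p = 1.24e-06). PC3 libraries held 3.07, 2.98 and 2.69 CPM in normoxia and 16.4, 11.9 and 14.5 CPM in hypoxia, and there STC1 had the largest fold of the hormones, 4.74 (log2 2.24 ± 0.16, adjusted p = 8.42e-05, rank 44 of 13466 genes). In T47D the levels were 14.3, 12.4 and 14.6 CPM in normoxia and 38.2, 31.1 and 24.2 CPM in hypoxia (1.1 ± 0.21, adjusted p = 0.00737). The oxygen groups did not overlap in any of the 3. The T47D call was lost without normoxia replicate 1 (adjusted p = 0.0649) or normoxia replicate 2 (adjusted p = 0.0548), with the log2 fold change at 1.15 and 1.03.

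HCT-116 had almost no STC1. The 3 normoxia libraries held 0, 0 and 1 count and the 3 hypoxia libraries 0, 16 and 1, so the gene fell below the filter. The 16 counts were all in hypoxia replicate 2, the library with the trace of other lines' genes, where STC1 stood at 0.306 CPM, or 0.449% of its mean in A549 hypoxia. Without that library 1 count remained in each oxygen state over the 5 libraries, and the part of the trace in the 16 counts was not tested. With all 6 libraries STC1 was called higher in HCT-116 when the filter was dropped (log2 fold change 3.83, adjusted p = 0.0489) and in the single fit of 24 libraries (3.92, adjusted p = 0.00485), but not with DESeq2 (4.07, adjusted p = 0.113). The scaled ratio of 17 counts to 1 was 20.9, with a 95% counting interval of 3.27 to 872. In HCT-116 alone, with all 6 libraries, the mean difference in log2 CPM was 1.25 (two-sided exact permutation test, p = 0.4). With oxygen states permuted within each line over all 4 lines, the mean difference in log2 CPM was 1.64 (two-sided exact permutation test, p = 5e-05). The test over 4 lines includes A549, PC3 and T47D, where the oxygen groups did not overlap. That result thus does not show a rise in HCT-116.

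STC2, the other stanniocalcin, was called higher in A549, HCT-116 and T47D. In A549 it went from 51.7, 61.4 and 68 CPM in normoxia to 258, 201 and 180.1 CPM in hypoxia (log2 fold change 1.81 ± 0.15, adjusted p = 8.73e-06). HCT-116 showed the largest change, from 62.7, 40.4 and 43.1 CPM to 259, 461 and 344 CPM (2.73 ± 0.27, adjusted p = 3.41e-05, rank 56 of 13614 genes, 2.53 to 3.03 when any 1 library was left out). In both lines every hypoxia library was above every normoxia library. T47D began high, at 725, 1004 and 1153 CPM in normoxia, and reached 2001, 2488 and 1838 CPM in hypoxia (1.06 ± 0.26, adjusted p = 0.0215). That call was lost without normoxia replicate 1 (0.91, adjusted p = 0.161), normoxia replicate 2 (adjusted p = 0.0731), hypoxia replicate 1 (adjusted p = 0.0595) or hypoxia replicate 2 (adjusted p = 0.0769). In PC3 normoxia held 540.0, 682 and 421 CPM and hypoxia 648, 852 and 767 CPM, the ranges overlapped, and STC2 was not called (0.42 ± 0.16, adjusted p = 0.0622). DESeq2, which the study used, called it there (0.42, adjusted p = 0.026), as did the fit without the filter (0.42, adjusted p = 0.0446). The main test also called it without normoxia replicate 2 (0.58, adjusted p = 0.00745). The study lists STC2 among the genes upregulated in all of its lines, PC3 included, so the PC3 result here depends on the method. The normoxia ranges of A549 and HCT-116 overlapped, while PC3 and T47D lay above both and apart from each other.

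EPO, the red cell hormone, was detected above single counts in T47D hypoxia. The T47D hypoxia libraries held 72, 48 and 66 EPO counts (1.17, 0.747 and 1.21 CPM), and the T47D normoxia libraries held 2, 1 and 0 (0.0464, 0.0145 and 0 CPM). The 3 normoxia libraries together held 3 counts and the hypoxia libraries 186, a ratio of 60.0 after scaling with a 95% interval of 20.2 to 293 (exact, for counting error only). EPO passed the filter in T47D only through the hypoxia libraries, and its fitted log2 fold change of 5.65 ± 0.8 (adjusted p = 0.00107) is set against a group at the floor. Leaving out any 1 T47D library gave 5.04 to 6.71. A permutation test of 3 against 3 cannot go below p = 0.1, and EPO gave that value in T47D (two-sided, exact).

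**Figure D2:**
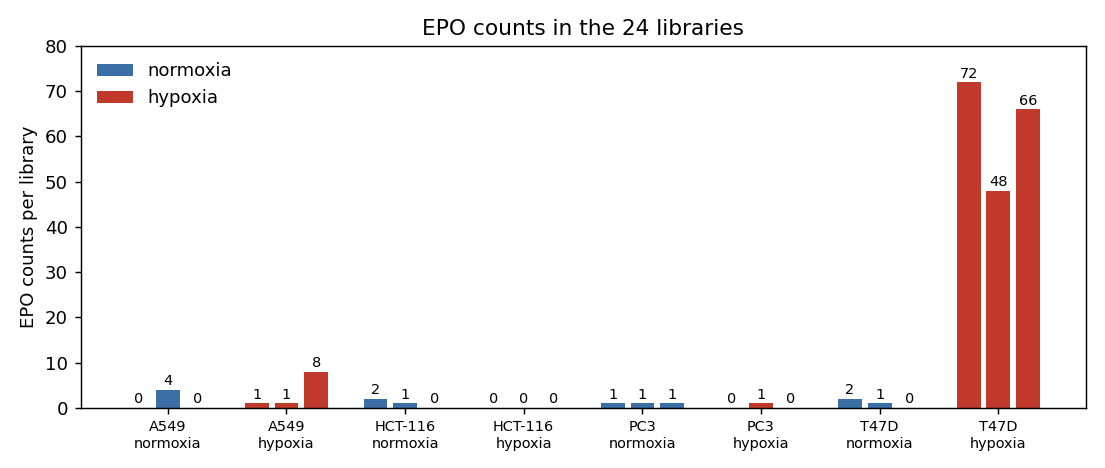
EPO counts in each of the 24 libraries (bars from 0, normoxia blue, hypoxia red, each bar 1 replicate with its count above it). The 3 T47D hypoxia libraries hold 72, 48 and 66 counts, and no other library holds more than 8.

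In the other lines EPO fell below the filter. A549 held 0, 4 and 0 counts in normoxia and 1, 1 and 8 in hypoxia, a scaled ratio of 2.57 with a 95% counting interval of 0.74 to 11.2. HCT-116 held 2, 1 and 0 in normoxia and 0 in all 3 hypoxia libraries, and PC3 held 1, 1 and 1 in normoxia and 0, 1 and 0 in hypoxia. The 95% counting intervals of the ratio ended at 2.97 in HCT-116 and 3.14 in PC3, below the interval in T47D. With normoxia at the floor of 3 counts, a fall was not detectable at this depth in either line. Over all 4 lines together the exact permutation test within lines gave p = 0.0745 for a mean log2 CPM difference of 0.94. No group of another line held EPO above a mean of 0.066 CPM, against 1.04 ± 0.255 CPM in T47D hypoxia.

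EDN1, the vasoconstrictor, was not called in any line, while its level differed widely between lines. In T47D it stood at 127, 147 and 109.7 CPM in normoxia and 148, 166 and 167 CPM in hypoxia, which did not overlap but did not pass the test (log2 fold change 0.24 ± 0.2, 95% interval -0.2 to 0.68, adjusted p = 0.446). In A549 it stood at 86.4, 93.4 and 79 CPM in normoxia and 87.9, 91.3 and 94.5 CPM in hypoxia (0.08 ± 0.11, 95% interval -0.15 to 0.31, adjusted p = 0.606). PC3 held 6.01, 7.2 and 6.45 CPM in normoxia and 8.27, 10.5 and 6.31 CPM in hypoxia (0.3 ± 0.19, 95% interval -0.12 to 0.72, adjusted p = 0.248). The interval in A549 leaves room for at most a small rise on this scale. HCT-116 held 0.396, 0.156 and 0.0638 CPM in normoxia and 0.155, 0.421 and 0.221 CPM in hypoxia, close to the floor, with an interval of -1.36 to 1.85 around a log2 fold change of 0.25 (adjusted p = 0.799).

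**Figure D3:**
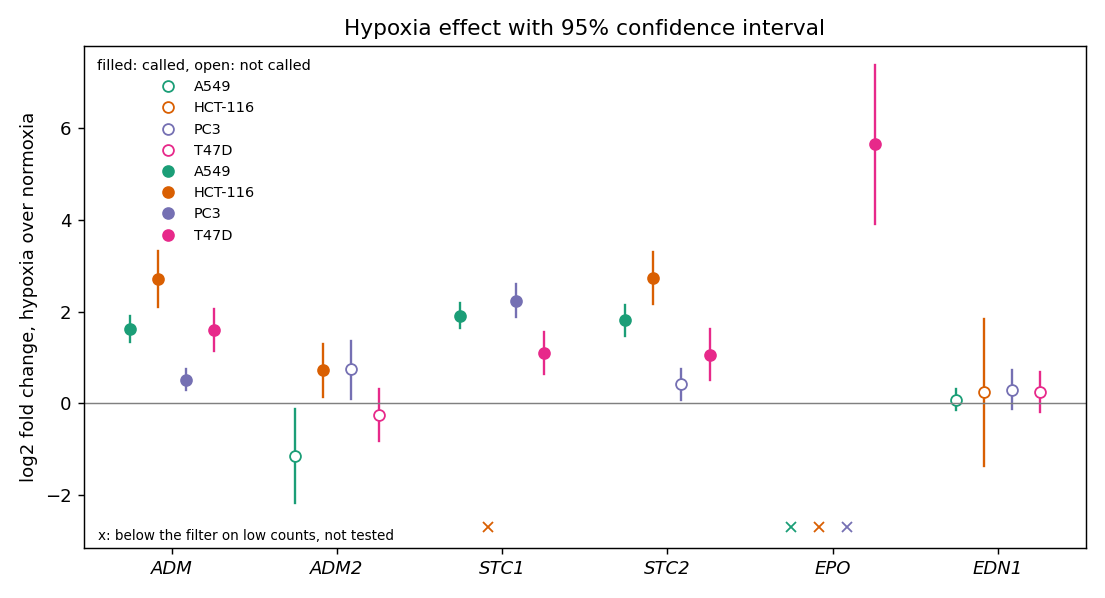
Log2 fold change, hypoxia over normoxia, of each hormone gene in each line with its 95% confidence interval from the fit of that line (filled points were called, open points were not, crosses mark genes below the filter). ADM lies above 0 in all 4 lines, EDN1 intervals all include 0, and ADM2 ranges from -1.15 in A549 to 0.74 in PC3.

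The size of the hypoxia effect was then compared between lines in a single fit of the 24 libraries with an interaction of line and oxygen. It differed for ADM (adjusted p = 0.000146), STC2 (adjusted p = 0.000181), EPO (adjusted p = 0.0149) and ADM2 (adjusted p = 0.0187), where 18.3% of 16089 genes passed. EPO entered this fit only through the T47D hypoxia libraries, with its other groups near the floor, so its p-value is not separate support. STC1 did not pass (adjusted p = 0.0801) and nor did EDN1 (adjusted p = 0.871). For STC1 the call depended on the processing, since it passed without HCT-116 hypoxia replicate 1 (adjusted p = 0.00924) or replicate 2 (adjusted p = 0.0377) and with DESeq2 (adjusted p = 0.0014). Between pairs of lines, 12 of 36 differences passed, adjusted over all genes and 6 pairs, where 6.54% of all such differences did. The 36 include 6 of EPO, of which 2 passed. These EPO pairs come from the same fit, which EPO entered only through T47D hypoxia, so they are not separate support.

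The ADM response was larger in HCT-116 than in each other line, by 1.21 on the log2 scale against A549 (difference A549 minus HCT-116 -1.21 ± 0.29 SE, adjusted p = 0.014), by 2.27 ± 0.29 against PC3 (adjusted p = 6.01e-05) and by 1.15 ± 0.29 against T47D (adjusted p = 0.0194). It was smaller in PC3 than in A549 (difference 1.05 ± 0.29, adjusted p = 0.0302) and in T47D (PC3 minus T47D -1.11 ± 0.29, adjusted p = 0.024). A549 and T47D differed by -0.06, with a 95% interval of -0.66 to 0.54. The STC2 response was larger in HCT-116 than in PC3 (2.4 ± 0.33, adjusted p = 0.000112) and T47D (1.73 ± 0.33, adjusted p = 0.00278), and larger in A549 than in PC3 (1.36 ± 0.33, adjusted p = 0.0149). The ADM2 effect was lower in A549 than in HCT-116 (-1.99 ± 0.5, adjusted p = 0.0183) and PC3 (-1.93 ± 0.52, adjusted p = 0.0281). For EPO, T47D passed against HCT-116 (adjusted p = 0.0331) and PC3 (adjusted p = 0.041), where the fitted sizes rest on counts of 0 and are not given. As EPO entered the fit only through the T47D hypoxia libraries, these p-values are not separate support. Without HCT-116 hypoxia replicate 2 the ADM difference of A549 from HCT-116 was -0.82 and passed (adjusted p = 0.0445), and that of HCT-116 from T47D was 0.76 and did not (adjusted p = 0.0633).

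When each of the 24 libraries was left out in turn, the ADM difference between HCT-116 and PC3, the ADM2 difference between A549 and HCT-116 and all 3 STC2 differences passed every time. The ADM difference between A549 and HCT-116 was lost without A549 normoxia replicate 2 (adjusted p = 0.0557). That between HCT-116 and T47D was also lost without HCT-116 normoxia replicate 2 (adjusted p = 0.0514) or T47D normoxia replicate 2 (adjusted p = 0.0613). That between PC3 and T47D was lost without PC3 hypoxia replicate 1, PC3 normoxia replicate 2 or T47D normoxia replicate 3 (adjusted p = 0.0526, 0.0529 and 0.051). The A549 to PC3 differences of ADM and ADM2 were lost in 6 of the 24 fits each, by libraries of these 2 lines (adjusted p of 0.0517 to 0.0633 and 0.0525 to 0.069). The EPO difference of T47D from HCT-116 was lost in 6 fits, by HCT-116 or T47D libraries (adjusted p of 0.0504 to 0.157). That from PC3 was lost in 10, by libraries of HCT-116, PC3 or T47D (adjusted p of 0.054 to 0.107).

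The normoxic level differed between lines for ADM (adjusted p = 1.75e-10), ADM2 (adjusted p = 1.46e-09), STC1 (adjusted p = 1.29e-14), STC2 (adjusted p = 8.01e-15) and EDN1 (adjusted p = 5.2e-18). This holds for 93.8% of all genes tested, so it does not set these 5 apart. EPO did not pass (adjusted p = 0.972). The normoxia libraries of each line together held only 3 or 4 EPO counts, too few for this test to show a difference. STC2 and EDN1 were highest in T47D, ADM and STC1 in A549. EDN1 means ran from 128 ± 18.5 CPM in T47D and 86.3 ± 7.23 CPM in A549 to 6.55 ± 0.603 CPM in PC3 and 0.205 ± 0.171 CPM in HCT-116, with no overlap between neighbors. STC1 followed the order A549 (18.1 ± 0.784 CPM), T47D (13.8 ± 1.23 CPM), PC3 (2.91 ± 0.199 CPM) and HCT-116 (0.00532 CPM), again without overlap, and kept that order in hypoxia.

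Levels of different genes were compared as CPM per kb of merged exons. On that scale STC2 had the highest single group mean, 417 ± 66.8 CPM per kb in T47D hypoxia, followed by ADM at 146 ± 63.3 in HCT-116 hypoxia and EDN1 at 78.8 ± 5.17 in T47D hypoxia. STC1 reached 16.5 ± 2.44 CPM per kb in A549 hypoxia, ADM2 reached 2.63 ± 0.785 in T47D normoxia and EPO 0.626 ± 0.153 in T47D hypoxia. The leading hormone transcript differed by line. In PC3 and T47D it was STC2 in both oxygen states, at means of 108 to 417 CPM per kb. In A549 normoxia EDN1 led (42.4 ± 3.55 CPM per kb) ahead of ADM (28.3 ± 4.88), and in A549 hypoxia ADM led (87.4 ± 1.96) ahead of EDN1 (44.8 ± 1.61). HCT-116 was led by ADM in both states, at 20.3 ± 2.64 and 146 ± 63.3 CPM per kb.

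**Figure D4:**
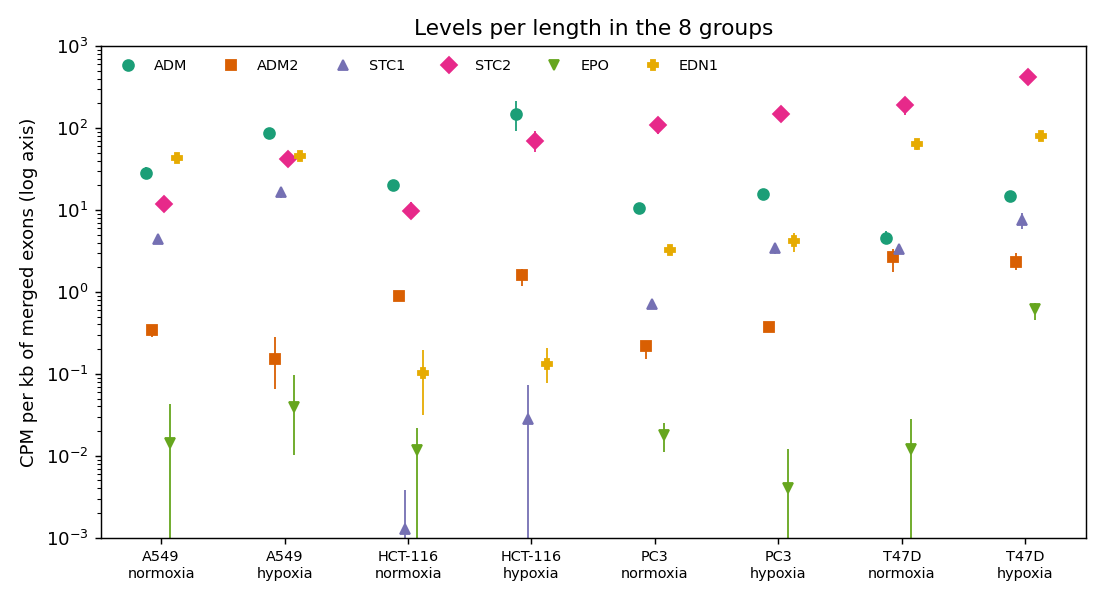
Mean level of each hormone gene per length in the 8 groups (CPM per kb of merged exons, log axis, lines from the lowest to the highest of 3 replicates). STC2 is highest in PC3 and T47D, ADM in HCT-116, and EPO in HCT-116 hypoxia is not drawn because all 3 libraries hold 0.

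The genes whose pattern over the 24 libraries was most like each hormone were named by Pearson's r of log2 CPM, as a description. Libraries of 1 line share that line's levels, so r mostly compares lines. For ADM these were DUSP5 (0.945), KLF3 (0.944) and WDR54 (0.942). For ADM2 they were MMRN2 (0.95), NTN1 (0.941) and SEMA6A (0.941), and for STC1 they were SMAP1 (0.976), GBP2 (0.976) and SFMBT2 (0.974). STC2 was most like USP43 (0.972), GMEB2 (0.96) and PPDPF (0.958), and EDN1 most like CTSF (0.993), PLBD1 (0.989) and ZNF569 (0.983). For EPO, B3GNT6 (0.927), FFAR2 (0.857) and SPAG4 (0.8) came first, but Spearman's rho was 0.432, 0.354 and 0.47, as 21 of the 24 libraries lie near 0.

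These hormones need partners in the cell that makes them and in the cell that receives them. Of 48 genes for receptors, relatives, maturation enzymes, stanniocalcin partners and the stress factor ATF4, 13 of 36 tested were called higher and 7 lower in A549. The counts were 10 and 6 of 30 in HCT-116, 12 and 4 of 29 in PC3, and 6 and 3 of 35 in T47D. As shares these were 36.1% higher and 19.4% lower in A549 (all genes 17.6% and 17.8%), 33.3% and 20% in HCT-116 (23.3% and 27.0%), 41.4% and 13.8% in PC3 (16.6% and 15.7%) and 17.1% and 8.57% in T47D (6.55% and 6.69%). The lower shares were thus near or below those of all genes.

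**Figure D5:**
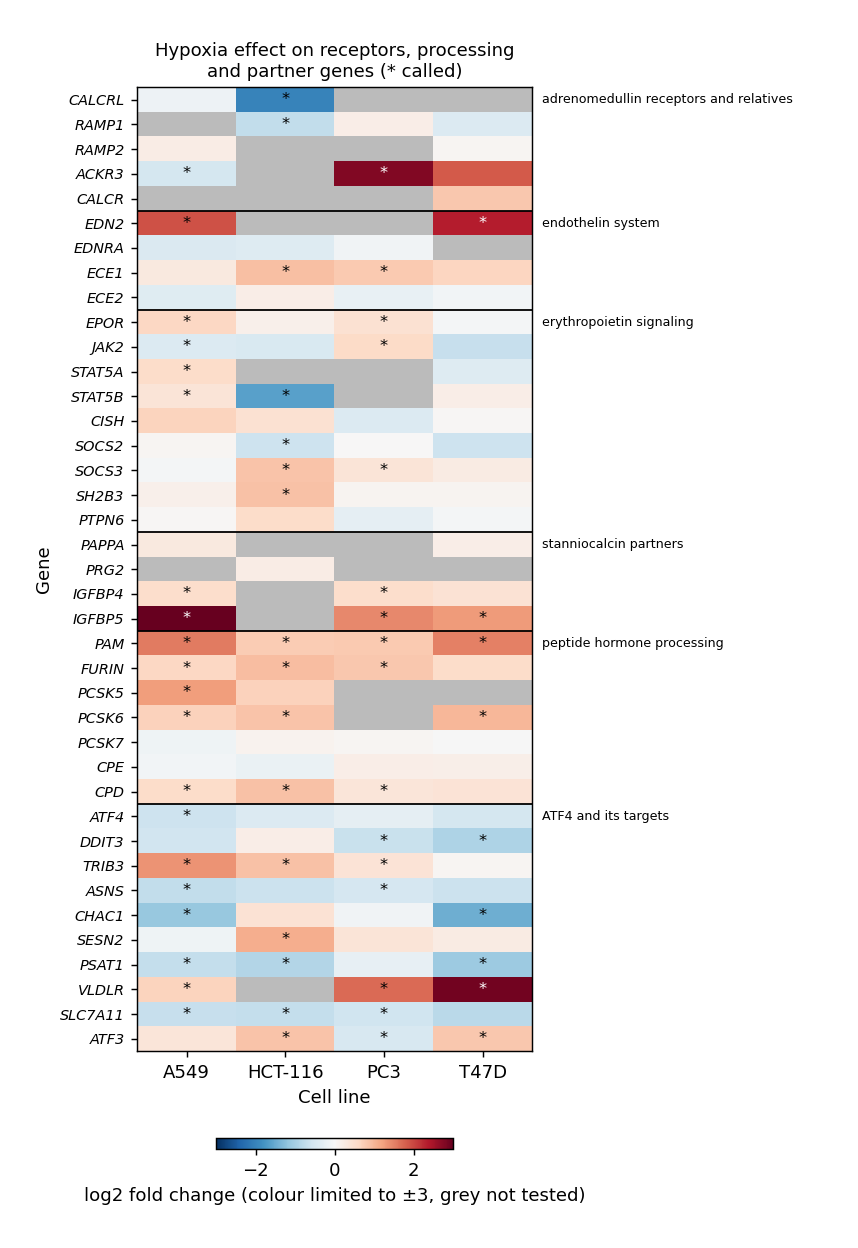
Log2 fold change, hypoxia over normoxia, of the pathway genes tested in at least 1 line, grouped by list (red higher, blue lower, grey below the filter, star called). PAM is called higher in all 4 lines, and none of the tested maturation enzymes is called lower.

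The enzymes that mature peptide hormones were called in the higher direction only. PAM, which adds the C-terminal amide that adrenomedullin needs for activity, rose in all 4 lines, with log2 fold changes of 1.56 ± 0.13 in A549 (adjusted p = 1.09e-05), 0.77 ± 0.23 in HCT-116 (adjusted p = 0.0124), 0.79 ± 0.09 in PC3 (adjusted p = 0.000829) and 1.52 ± 0.21 in T47D (adjusted p = 0.00106). The HCT-116 call was lost without hypoxia replicate 2 (adjusted p = 0.0571). FURIN, a convertase that cleaves prohormones, rose in A549 (0.62), HCT-116 (0.93) and PC3 (0.82). The convertase gene PCSK6 rose in A549 (0.69), HCT-116 (0.86) and T47D (0.99), the last lost in 4 of 6 fits without 1 library, namely hypoxia replicate 1 or 2 or normoxia replicate 1 or 2 (adjusted p of 0.0644 to 0.168). CPD, a carboxypeptidase of the secretory pathway, rose in A549 (0.54), HCT-116 (0.88) and PC3 (0.37), the last lost in 5 of 6 such fits, all but that without normoxia replicate 2. In all, 5 of 7 tested enzymes were called higher in A549, 4 of 7 in HCT-116, 3 of 5 in PC3 and 2 of 6 in T47D (all genes 17.6%, 23.3%, 16.6% and 6.55%), with list medians of 0.62, 0.77, 0.37 and 0.48.

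Receptors did not share a direction. CALCRL, which forms the adrenomedullin receptor with a RAMP protein, fell in HCT-116 from 1.52 to 0.402 CPM (log2 fold change -2 ± 0.51, adjusted p = 0.00596) and was below the filter in PC3 and T47D. ACKR3, an atypical receptor that binds chemokines and adrenomedullin, fell in A549 from 7.6 to 5.33 CPM (-0.52 ± 0.17, adjusted p = 0.0335), a call lost in 5 of 6 fits without 1 library, all but that without hypoxia replicate 3 (adjusted p of 0.0605 to 0.121). It rose in PC3 from 0.103 to 0.809 CPM (2.77 ± 0.52, adjusted p = 0.00519). In the PC3 normoxia libraries 3 counts stood for 0.0552 to 0.124 CPM, so this fold is set against a group near the floor. ACKR3 thus passed the filter in PC3 through the hypoxia libraries. In T47D ACKR3 stood at 0.147 CPM in normoxia and 0.552 CPM in hypoxia and was not called (1.83 ± 0.58, adjusted p = 0.0535). It was called there with replicate number as a block (1.82, adjusted p = 0.0408). DESeq2 (1.85, adjusted p = 0.047) and the single fit (1.92, adjusted p = 0.00158) also called it. Of 9 genes in the adrenomedullin list, only 2 to 4 passed the filter in a line. Of these 0 were called higher in A549, HCT-116 and T47D and 1 in PC3 (all genes 17.6%, 23.3%, 6.55% and 16.6%). The 1 in PC3 was ACKR3, with normoxia near the floor. Called lower were 1 in A549, 2 in HCT-116 and 0 in PC3 and T47D (all genes 17.8%, 27.0%, 15.7% and 6.69%). The HCT-116 count includes RAMP1 (-0.73, adjusted p = 0.0172), lost without hypoxia replicate 1 or normoxia replicate 2 or 3 (adjusted p of 0.0596 to 0.103).

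In the endothelin system, EDN2, a sister peptide of endothelin-1, was called higher where EDN1 was most abundant. It rose from 1.63 to 6.18 CPM in A549 (log2 fold change 1.92 ± 0.25, adjusted p = 0.000248) and from 0.49 to 2.66 CPM in T47D (2.35 ± 0.43, adjusted p = 0.00596), and was below the filter in HCT-116 and PC3. The T47D call was lost without normoxia replicate 1 (adjusted p = 0.0599). ECE1, the enzyme that releases endothelin from its precursor, rose in HCT-116 (0.9 ± 0.2, adjusted p = 0.00232) and PC3 (0.79 ± 0.12, adjusted p = 0.00273). The list had 1 gene called higher and 0 called lower of 4 tested in A549 and of 3 tested in each other line. Among all genes the shares called higher were 17.6% in A549, 23.3% in HCT-116, 16.6% in PC3 and 6.55% in T47D. The shares called lower were 17.8%, 27.0%, 15.7% and 6.69% in that order. The counts of this list moved with the processing. ECE1 was also called higher in T47D with DESeq2 (adjusted p = 0.0307), without the filter (adjusted p = 0.0474), in the single fit (adjusted p = 0.00733) and without hypoxia or normoxia replicate 3 (adjusted p = 0.00916 and 0.0459), and in A549 without hypoxia replicate 3 (adjusted p = 0.00518). ECE2 was called lower in A549 with library totals, with the block or without hypoxia replicate 3 (adjusted p of 0.0171 to 0.0436).

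Of the erythropoietin signaling genes, EPOR, the receptor, rose in A549 (0.63 ± 0.18, adjusted p = 0.0174) and PC3 (0.45 ± 0.14, adjusted p = 0.0323). The A549 call was lost without hypoxia replicate 2 or normoxia replicate 1 or 2 (adjusted p of 0.0561 to 0.0633), and the PC3 call without normoxia replicate 1 or any 1 hypoxia replicate (adjusted p of 0.0736 to 0.11). In T47D, whose hypoxia libraries held 48 to 72 EPO counts, EPOR stood at 7.99 CPM in normoxia and 8.15 CPM in hypoxia (-0.06 ± 0.26, adjusted p = 0.895). There 0 of 9 tested genes of the list were called in the main test (all genes 6.55% higher and 6.69% lower). The kinase gene JAK2 was called lower in A549 (-0.4), a call lost in 5 of 6 fits without 1 library, all but that without hypoxia replicate 3 (adjusted p of 0.09 to 0.207). It rose in PC3 (0.58, lost without hypoxia replicate 1, adjusted p = 0.0751), with -0.69 in T47D not called (adjusted p = 0.102). The single fit called JAK2 lower in T47D (-0.61, adjusted p = 0.0317). STAT5B, a transcription factor downstream of the receptor, rose in A549 (0.39, lost without normoxia replicate 1, adjusted p = 0.0602) and fell in HCT-116 (-1.62), where SOCS3, a feedback inhibitor, rose (0.85). SOCS3 also rose in PC3 (0.39), but not without hypoxia replicate 1 or 2 (adjusted p = 0.0631 and 0.06). CISH, a further inhibitor, had the largest change of the list in A549 (0.67) but was not called (adjusted p = 0.227).

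Among the stanniocalcin partners, IGFBP5, a binding protein that PAPP-A proteases cleave, rose in A549 from 0.261 to 3.19 CPM (log2 fold change 3.61 ± 0.52, adjusted p = 0.000435), in PC3 from 0.715 to 2.16 CPM (1.45 ± 0.43, adjusted p = 0.0291) and in T47D from 878 to 2255 CPM (1.28 ± 0.31, adjusted p = 0.0193). The PC3 call was lost without hypoxia replicate 1 or 2 or normoxia replicate 1 or 3 (adjusted p of 0.0622 to 0.102), and the T47D call without hypoxia replicate 1 or 2 or normoxia replicate 1 or 2 (adjusted p of 0.0522 to 0.16). IGFBP4, another PAPP-A substrate, rose in A549 (0.53) and PC3 (0.53). Both calls held when any 1 library was left out. They were lost in the single fit (adjusted p = 0.468 and 0.465) and with a fold over 1.5. PRG2, which encodes a PAPP-A inhibitor and was the only gene of the list tested in HCT-116, was at 0.386 CPM in normoxia and 0.476 CPM in hypoxia and was not called (0.22, adjusted p = 0.756).

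STC2 and ADM2 are also known to be induced through ATF4, the transcription factor of the amino acid and endoplasmic reticulum stress response, so ATF4 and its targets were read beside them. They moved in both directions, with 2 called higher and 5 lower of 10 in A549, 3 and 2 of 9 in HCT-116, 2 and 4 of 10 in PC3 and 2 and 3 of 10 in T47D. Against the shares of all genes (17.6% and 17.8%, 23.3% and 27.0%, 16.6% and 15.7%, 6.55% and 6.69%), 2 of 10 higher in A549 and PC3 was near the background and 2 of 9 lower in HCT-116 was below it. ATF4 itself fell in A549 (-0.62 ± 0.14, adjusted p = 0.00488) and was not called elsewhere in the main test. It was called lower in PC3 with DESeq2, with library totals or without normoxia replicate 2 (adjusted p of 0.0104 to 0.0484). In T47D it was called lower with library totals (adjusted p = 0.0461) or the single fit (adjusted p = 0.0312). TRIB3, a pseudokinase, rose in A549 (1.35), HCT-116 (0.89) and PC3 (0.42), the last lost without hypoxia replicate 1 or normoxia replicate 1 (adjusted p = 0.0752 and 0.0734). VLDLR, a lipoprotein receptor, rose in A549 (0.66), PC3 (1.71) and T47D (2.9 ± 0.22, adjusted p = 5.94e-06), and SESN2, a stress-induced inhibitor of mTORC1 signaling, rose in HCT-116 (1.1). PSAT1, an enzyme of serine synthesis, fell in A549 (-0.71), HCT-116 (-0.89) and T47D (-1.08) and was not called in PC3 (-0.24, adjusted p = 0.0624). With library totals or without normoxia replicate 2 it was called lower in PC3 (adjusted p = 0.0393 and 0.039). ASNS, asparagine synthetase, fell in A549 (-0.73) and PC3 (-0.5). In the main test it was not called in HCT-116 (-0.64, adjusted p = 0.0773) or T47D (-0.64, adjusted p = 0.0773). With replicate number as a block it was called lower in HCT-116 (-0.65, adjusted p = 0.00718) and T47D (-0.63, adjusted p = 0.0281). The same held in HCT-116 without hypoxia replicate 2 (-0.96, adjusted p = 0.0122). In T47D it also held with library totals (adjusted p = 0.0336) or without hypoxia replicate 3 (adjusted p = 0.0232). The cystine transporter gene SLC7A11 fell in A549 (-0.68), HCT-116 (-0.71) and PC3 (-0.6) and was not called in T47D (-0.8, adjusted p = 0.0563). With DESeq2, without the filter, in the single fit or without hypoxia replicate 2 it was called lower in T47D (adjusted p of 0.0222 to 0.0345). CHAC1, a glutathione-degrading enzyme, fell in A549 (-1.14) and T47D (-1.46), and DDIT3, which encodes the stress factor CHOP, fell in PC3 (-0.66) and T47D (-0.93). ATF3 rose in HCT-116 (0.85) and T47D (0.82) and was called lower in PC3 (-0.47), a call lost in 5 of 6 fits without 1 library, all but that without normoxia replicate 1 (adjusted p of 0.0881 to 0.127).

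Some further calls of this list rested on single libraries. PSAT1 in T47D was lost without hypoxia replicate 1 or normoxia replicate 1 (adjusted p of 0.0585 to 0.122), DDIT3 in T47D without normoxia replicate 1 or 2 (0.116 to 0.145) and CHAC1 in T47D without normoxia replicate 2 (adjusted p = 0.0556). ATF3 in T47D was lost without hypoxia replicate 1 or normoxia replicate 1 or 2 (adjusted p of 0.067 to 0.128), and in HCT-116 without hypoxia replicate 2 (adjusted p = 0.0733). SLC7A11 in PC3 was lost without hypoxia replicate 2 or 3 or normoxia replicate 1 (adjusted p of 0.0676 to 0.0843), and in HCT-116 without hypoxia replicate 2 (adjusted p = 0.0544). DDIT3 in PC3 was lost without hypoxia replicate 1 (adjusted p = 0.0514).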

How the data were processed

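RNA was selected for poly-A and made into libraries with a directional kit. Per the labels and the study's methods, the authors trimmed reads with Trim Galore 0.3.3, aligned them to GRCh37 with HISAT2 2.05, removed fragments that did not map uniquely with Picard 2.0.1 and deposited raw read counts per UCSC gene from HTSeq 0.5.4p3 in intersection-strict mode. A read that spans a boundary of the gene model is not counted in that mode. The counts are integers and not normalized.

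Groups and replicate numbers came from the sample titles. The 6 genes and the pathway and marker lists were chosen with earlier results of these data known, and ADM and STC2 belong to a list the study chose partly on these libraries, so their direction is not independent evidence. Each line was fitted on its own in edgeR 4.0.16 (R 4.3.3; filterByExpr, TMM, glmQLFit and glmQLFTest), with calls at adjusted p under 0.05 and fold over 1.2, the thresholds of the study, which used DESeq2. Differences between lines were tested in a fit of all 24 libraries. DESeq2 1.42.0, other scalings and filters, a replicate block and leaving out each library were alternatives. Genes below the filter were tested by exact permutation of log2 CPM (prior count 2). The scripts were tested on simulated counts. Same-numbered libraries deviated together in T47D (r = 0.154, 0.325 and 0.303 across genes), and the block changed no call of the 6 genes there. Of the pathway lists, genes were named when called in at least 2 lines or when largest in their list in a line. ACKR3 was found under its older symbol CXCR7. A marker gene of the lists is not reported here.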

Additional observations from a re-analysis of the deposited data

Results flagged for a closer look

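The hypoxia effect differed between the 4 lines for 4 of the 6 hormone genes, by edgeR's test of the interaction of line and oxygen in all 24 libraries with Benjamini-Hochberg adjustment over 16089 genes. The adjusted p was 0.000146 for ADM, whose log2 fold change ran from 0.52 in PC3 to 2.72 in HCT-116 and was positive in 4 of 4 lines. It was 0.000181 for STC2, whose log2 fold change ran from 0.42 in PC3 to 2.73 in HCT-116. For EPO it was 0.0149, with 186 counts in the 3 T47D hypoxia libraries against 0 to 10 in the hypoxia libraries of each other line. EPO passed the filter only through those T47D libraries, so this p-value is not separate support. For ADM2 the adjusted p was 0.0187, with log2 fold changes of -1.15 in A549, 0.72 in HCT-116, 0.74 in PC3 and -0.26 in T47D. Of all genes tested, 18.3% passed the same test.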

How the results depend on the processing

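Over all alternatives, called changes of ADM, STC1, STC2 and EPO kept their direction. The only reversals were of EDN1, which was not called: -0.04 in A549 with library totals, and -0.29 or -0.16 in HCT-116 without hypoxia replicate 2 or normoxia replicate 3 (up to 1.25 without normoxia replicate 1). In A549, 1 hormone (ADM2) became lower with DESeq2 (adjusted p = 0.0457), the replicate block (-1.34, adjusted p = 0.0259) and a single fit of all 24 libraries (adjusted p = 0.0349). In PC3, 1 hormone was called with the single fit or with a fold over 1.5. Leaving out 1 library gave 3 to 4 hormones called in A549 (0 to 1 lower), 2 to 3 in HCT-116, 2 to 3 in PC3 and 2 to 4 in T47D, with 2 in T47D without normoxia replicate 1 or 2. At an adjusted p under 0.01, 2 hormones differed in effect between lines and 3 pairs of lines passed.

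Pathway genes in A549 called higher were 8 with the single fit. In PC3 the higher and lower counts were 6 and 0 with the single fit, 6 and 2 with a fold over 1.5, 6 and 1 at adjusted p under 0.01, and 6 to 12 and 2 to 5 without 1 library. In T47D lower calls were 5 with library totals or the single fit, the counts were 3 and 0 at adjusted p under 0.01, and 2 to 9 and 1 to 4 without 1 library (2 and 1 without normoxia replicate 1, 3 and 1 without normoxia replicate 2, 3 higher without hypoxia replicate 1). The STC2 level in T47D hypoxia was 496 CPM per kb by the longest transcript.

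The replicate block also called STC2 in PC3 (0.43, adjusted p = 0.0242) and the STC1 interaction (adjusted p = 0.0222), and lost both EPO differences between lines (adjusted p = 0.054 and 0.0712). Outside T47D same-numbered libraries deviated together less evenly (r of 0.071 to 0.288, not above 0.1 in every pair). In HCT-116 r was 0.288, 0.224 and 0.071, and in PC3 it was 0.081, 0.082 and 0.078. Whether the numbers mark pairs in these lines is not settled by these values. A549 replicate 2 correlated best with another number, and the other pairs with their own. Library totals shifted the median of all genes to -0.13 in A549 and -0.12 in T47D. The cause of these shifts was not tested. EPO in HCT-116 and PC3 normoxia lay at the floor of 3 counts, where this depth cannot show a fall.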
